A study of Mus musculus with 6 samples.

Results

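Ribosomal protein genes encode the proteins of the large and small cytoplasmic ribosomal subunits. They were picked by symbol: Rpl or Rps followed by a digit, together with Rplp0, Rplp1, Rplp2 and Rpsa, with the S6 kinases left out. Of 17254 genes seen in any library, 92 match those letters, and 89 of these are among the 11717 genes that were tested, those whose FPKM averages 1 or more over the libraries. The 89 are 77 core ribosomal protein genes (46 of the large and 31 of the small subunit), 6 paralogs or retrocopies (Rpl7l1, Rpl22l1, Rpl36al, Rps27l, Rpl37rt and Rps23rg1), 5 symbols ending in -ps that name pseudogenes, and Rps19bp1, which is a binding protein and is set apart. Unless stated otherwise, counts are over the 83 core genes and paralogs. The 3 matches under the filter, Rpl32l, Rpl39l and Rps4l, had mean FPKM of 0.0317, 0.0467 and 0.06.

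The series holds 6 bulk RNA-seq libraries of cultured mouse neural stem/progenitor cells (NSPC), 2 each for untreated control, the pro-oxidant paraquat (PQ) and the antioxidant N-acetylcysteine (NAC), all taken at 48 h. PQ was given at 5 µM per the label of PQ 1. Every library carries the same deletion, written Ink/Ark knockout in the labels and Ink/Arf-/- in the study's methods, and the strain C57BL/6 is stated for 2 of the 6. The labels give NucleoSpin extraction, Illumina sequencing and TopHat2 for control 1 and PQ 1 (batch 1 here) and TRIZOL, BGISEQ-500, HISAT2 and RSEM for control 2, PQ 2, NAC 1 and NAC 2 (batch 2), so NAC exists in batch 2 only. The cells are an immortalised line from neonates, grown as a mixed population with EGF and bFGF, and lack the Ink/Arf tumour suppressors, so they model a dividing progenitor culture without that brake. The libraries may be technical replicates of one culture, and p-values here measure only the spread between these libraries.

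The ribosome joins ribosomal RNA to a large set of proteins that are made in the cytoplasm, carried into the nucleolus and assembled there. Vertebrate ribosomal protein mRNAs start with a run of pyrimidines, the 5' terminal oligopyrimidine (TOP) tract, through which the mTOR pathway and Larp1 control their translation and stability. When ribosome assembly is disturbed, free Rpl5 and Rpl11 bind MDM2 and stabilise p53, and dividing neural progenitors are known to need a high output of ribosomes.

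The neural stem and progenitor markers fit the label in part. Their 7 genes summed to an FPKM of 1197 and 1118 in control, 1122 and 1084 in PQ, and 1298 and 1173 in NAC, with the radial glia lipid carrier Fabp7 the most abundant and the surface protein Prom1 at 0 to 0.16. The oligodendrocyte-lineage factors Olig1 and Olig2 were high (Olig1 at 320 to 554 FPKM) while Sox10 of the same list lay at 0 to 0.04, and of the neuronal list Dcx did not pass 0.08 while Map2 lay at 32.6 to 64.9. Markers of microglia, endothelium and fibroblasts summed to at most 4.5, 0.58 and 5.55 FPKM in any library.

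Ribosomal protein mRNAs are among the most abundant in these cells. Across the 83 genes the mean FPKM (fragments scaled to transcript length and library size, a level per length) runs from 4.11 to 1607 with a median of 538, against a median of 12.8 over all tested genes. As many as 76 of 83 reach an FPKM of 100, and 45 of the 100 most abundant genes of the data set are ribosomal protein genes. The most abundant per length are Rpl23a of the polypeptide exit site (mean FPKM 1607), the very small Rpl41 (1460), Rps26 of the mRNA exit channel (1453), Rpl26 (1170) and Rpl35 (1134). At the other end are Rpl34 (4.11), the retrocopy Rps23rg1 (9.07), Rps15a (29.9), Rpl30 (34.7) and the retrocopy Rpl37rt (39.4). All the core proteins among these are built into the same particle, yet the levels per length assigned to their genes differ widely. Of these core genes, Rpl34, Rps15a, Rpl30 and Rps26 shared reads with look-alike sequences in all 6 libraries, as described below. Part of the range can therefore come from how reads were placed.

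The transcripts are short: the length the files give runs from 328 to 5158 bases with a median of 703, against 2805 for all tested genes. Rps28, an mRNA exit protein, is the shortest and Rps15a the longest. In bulk RNA, fewer cells of a type and less RNA per cell cannot be told apart, and this holds for each comparison that follows.

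The lowest value of that order, that of Rpl34, goes with counts placed on a gene copy. Rps15a shares counts with copies too, but it also has the longest transcript of the set (5158 bases). The expected counts come from a model that shares reads between look-alike sequences, so a count with decimals, of which the files print 2, marks a gene that shared reads, though a whole count can arise with shared reads too. Such fractional counts occur in at least 1 library for 28 of the 83 genes (33.7%, against 23.2% of all tested genes), in all 6 libraries for 14, and for all 5 -ps symbols. The other 55 genes have counts printed as whole numbers in every library. For comparison, 24.4% of the 78 mitochondrial ribosomal protein genes have a fractional count in any library. In the tested set 29 genes that RefSeq names as pseudogenes have both a fractional count and an average FPKM of 10 or more, and 2 of these, Rps15a-ps4 and Rps15a-ps6, are among the -ps symbols.

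Rpl34, a large-subunit protein, received 13.4 and 29.6 expected counts in control, 26.8 and 24.2 in PQ, and 25.7 and 27 in NAC. Rpl34-ps1 received 1694 and 1770, 1661 and 1729, and 1822 and 1807 in the same order. Between 0.787% and 1.65% of the counts of the 2 together were placed on the parent gene, so nearly the whole signal of this family sits under the pseudogene symbol in every library. Despite the symbol, RefSeq lists Rpl34-ps1 and Rpl31-ps12 as protein coding. Rps15a, a small-subunit protein, shares reads with Rps15a-ps4 and Rps15a-ps6 and holds 44.1% and 45.2% of the family's counts in control, 43.1% and 42.4% in PQ, and 47.3% and 45.8% in NAC. Rpl31, at the rim of the exit tunnel, holds 64.8% and 60.8%, 56.5% and 59.4%, and 59.5% and 54.7% of the counts shared with Rpl31-ps12. For Rps15a the parent's part is lowest in PQ and highest in NAC, and for Rpl31 it is highest in control, with no overlap in either case except between PQ and NAC for Rpl31.

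For Rpl37, a zinc-binding protein of the large subunit, the split changes from library to library. Its retrocopy Rpl37rt received 478 and 0 expected counts in control, 229 and 430 in PQ, and 186 and 212 in NAC. The parent therefore holds 79.8% of the family in control 1 and 100% in control 2, 87.9% and 78.5% in PQ, and 92.1% and 89.4% in NAC, so control overlaps each treatment while PQ lies below NAC. Among the small-subunit genes with a minor copy, Rps23 keeps at least 96.3% of the counts of Rps23 and Rps23rg1, and Rps19 at least 99.5% of those of Rps19 and Rps19-ps3.

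**Figure D1:**
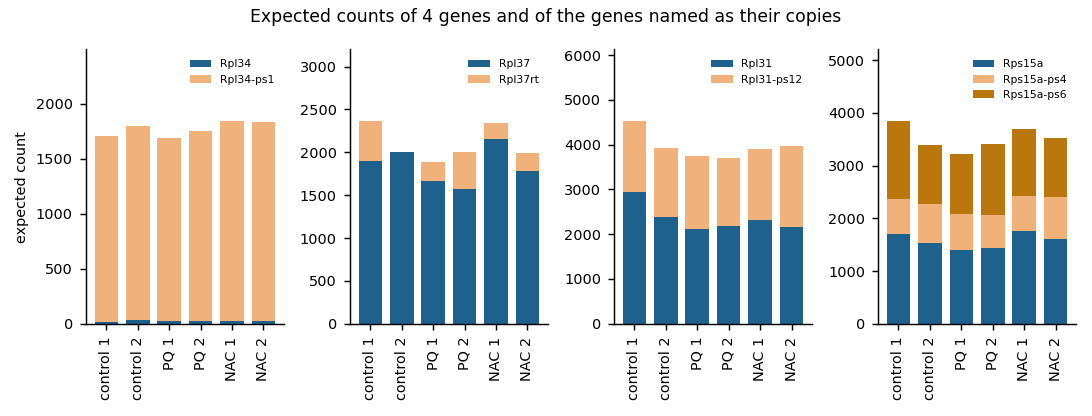
Expected counts placed on 4 ribosomal protein genes and their copies, stacked, in each of the 6 libraries. For Rpl34 almost the entire bar belongs to the pseudogene symbol, while Rpl31 and Rps15a are divided between parent and copies.

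Since most of these mRNAs are thought to start with a pyrimidine tract, the sequence around the annotated start is shown for some of the named members. They are 7 that were lower in PQ (Rpsa, Rps2, Rps16, Rpl12, Rpl31, Rpl14 and Rpl35), the single higher member Rps27l with its partner Rps27, and the S6 kinase substrate Rps6. Each window has 30 bases on either side of the start, 5' to 3' on the gene's strand, and capitals mark its longest unbroken run of C and T. The sequences and starts are from RefSeq on GRCm38.p6: Rpsa chr9:120127736-120127795 (plus strand), Rps2 chr17:24720033-24720092 (plus), Rps16 chr7:28350659-28350718 (plus), Rpl12 chr2:32961682-32961741 (plus), Rpl31 chr1:39367821-39367880 (plus), Rpl14 chr9:120571487-120571546 (plus), Rps27l chr9:66946056-66946115 (plus), Rps27 chr3:90213619-90213678 (minus), Rpl35 chr2:39005102-39005161 (minus) and Rps6 chr4:86857338-86857397 (minus).
Rpsa: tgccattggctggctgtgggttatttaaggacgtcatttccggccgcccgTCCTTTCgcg
Rps2: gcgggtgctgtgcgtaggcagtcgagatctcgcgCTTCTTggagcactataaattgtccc
Rps16: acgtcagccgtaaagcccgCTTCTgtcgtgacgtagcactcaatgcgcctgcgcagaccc
Rpl12: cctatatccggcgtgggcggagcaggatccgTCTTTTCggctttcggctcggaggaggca
Rpl31: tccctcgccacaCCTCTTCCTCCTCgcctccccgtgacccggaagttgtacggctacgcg
Rpl14: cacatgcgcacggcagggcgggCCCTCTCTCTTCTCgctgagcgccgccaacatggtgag
Rps27l: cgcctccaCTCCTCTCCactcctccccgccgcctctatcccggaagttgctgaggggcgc
Rps27: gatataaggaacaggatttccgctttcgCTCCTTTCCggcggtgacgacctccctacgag
Rpl35: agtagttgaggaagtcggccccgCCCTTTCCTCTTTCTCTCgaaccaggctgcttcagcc
Rps6: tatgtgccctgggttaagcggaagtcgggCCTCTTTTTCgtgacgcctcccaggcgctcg

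The run is 18 bases long in Rpl35, 14 in Rpl14, 13 in Rpl31, 10 in Rps6, 9 in Rps27 and Rps27l, 7 in Rpsa and Rpl12, 6 in Rps2 and 5 in Rps16. For Rps12, Rps15 and Rplp0, which are not shown, it is 11, 7 and 7. In Rps6, Rps27, Rpl14 and Rpl35 it spans the annotated start itself, while in Rpsa it lies downstream and in Rps27l and Rpl31 upstream of it. Promoter entries were found for 63 of the 83 genes (74 promoters). Their longest run has a median of 9 bases, against 6 over all tested genes with an entry and 6 over all promoters, and it reaches 8 bases in 55.6% of the 63, against 25.3% of tested genes and 25.8% of all genes with a promoter. By response the longest run was close: its median was 7.5 bases for the 14 matched genes lower in PQ and 9 for the 48 not called. A run of 8 bases or more was present in 50% and 56.2% of these. This run can lie anywhere in the window, upstream of the start too. It is therefore not the length of a TOP tract, which was not measured.

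Motifs were searched by letters on both strands in the 250 bases before and 30 after each start. CTCTTTC, a pyrimidine-rich stretch, occurs in 28.6% of the 63 genes, 8.58% of tested genes and 9.28% of all genes with a promoter. CTTTCC occurs in 50.8%, 30.1% and 29.3%, and CCGGAAG, the letters bound by ETS-family factors such as GABPA, in 39.7%, 21.3% and 9.93%. GGGCGG (Sp1 type) occurs in 61.9%, 70.6% and 38.2%, TATAAA in 11.1%, 8.19% and 15.7%, and CACGTG (the E-box of Myc) in 9.52%, 12.2% and 8.09%. CTCTTTC and CTTTCC can overlap each other by a few letters. A match is a description and not a binding site. The whole searched window is printed for the gene with the largest fall and the gene with the largest rise in PQ, with matches to these motifs on either strand in capitals: Rpsa chr9:120127516-120127795 and Rps27l chr9:66945836-66946115, each on the plus strand of GRCm38.p6.
Rpsa: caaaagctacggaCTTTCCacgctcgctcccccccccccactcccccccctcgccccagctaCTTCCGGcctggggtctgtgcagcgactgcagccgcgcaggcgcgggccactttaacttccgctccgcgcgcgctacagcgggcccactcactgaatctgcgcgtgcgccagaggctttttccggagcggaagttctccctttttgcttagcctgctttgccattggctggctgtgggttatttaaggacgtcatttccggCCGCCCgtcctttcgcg
Rps27l: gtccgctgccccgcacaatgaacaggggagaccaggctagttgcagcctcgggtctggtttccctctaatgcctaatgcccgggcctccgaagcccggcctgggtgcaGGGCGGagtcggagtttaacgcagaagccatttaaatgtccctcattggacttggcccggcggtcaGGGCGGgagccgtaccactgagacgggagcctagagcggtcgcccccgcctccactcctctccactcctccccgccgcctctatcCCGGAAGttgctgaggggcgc

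Both windows hold CCGGAAG, on the other strand and upstream in Rpsa and just after the start in Rps27l. GGGCGG is present in each as well, and CTTTCC in Rpsa.

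After PQ, ribosomal protein mRNAs were lower as a group by a small amount. Of the 83 genes 19 fell (22.9%, where 9.45% of all tested genes fell) and 1 rose (9.76% of tested genes rose), at an adjusted p under 0.05 (quasi-likelihood test of edgeR, adjusted by Benjamini-Hochberg). At an unadjusted p under 0.05 the counts are 39 lower (47%, against 15.6% of all tested genes) and 3 higher (3.61%, against 16%). The median log2 fold change is -0.19, against -0.00 over all tested genes, and it is negative in 74 of 83. In 52 genes both PQ libraries lie below both control libraries (28.7% of tested genes do) and in 4 both lie above (29.2%). The falls include 12 of 46 large-subunit genes (median -0.19) and 7 of 31 small-subunit genes (median -0.23), so neither subunit stands apart.

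**Figure D2:**
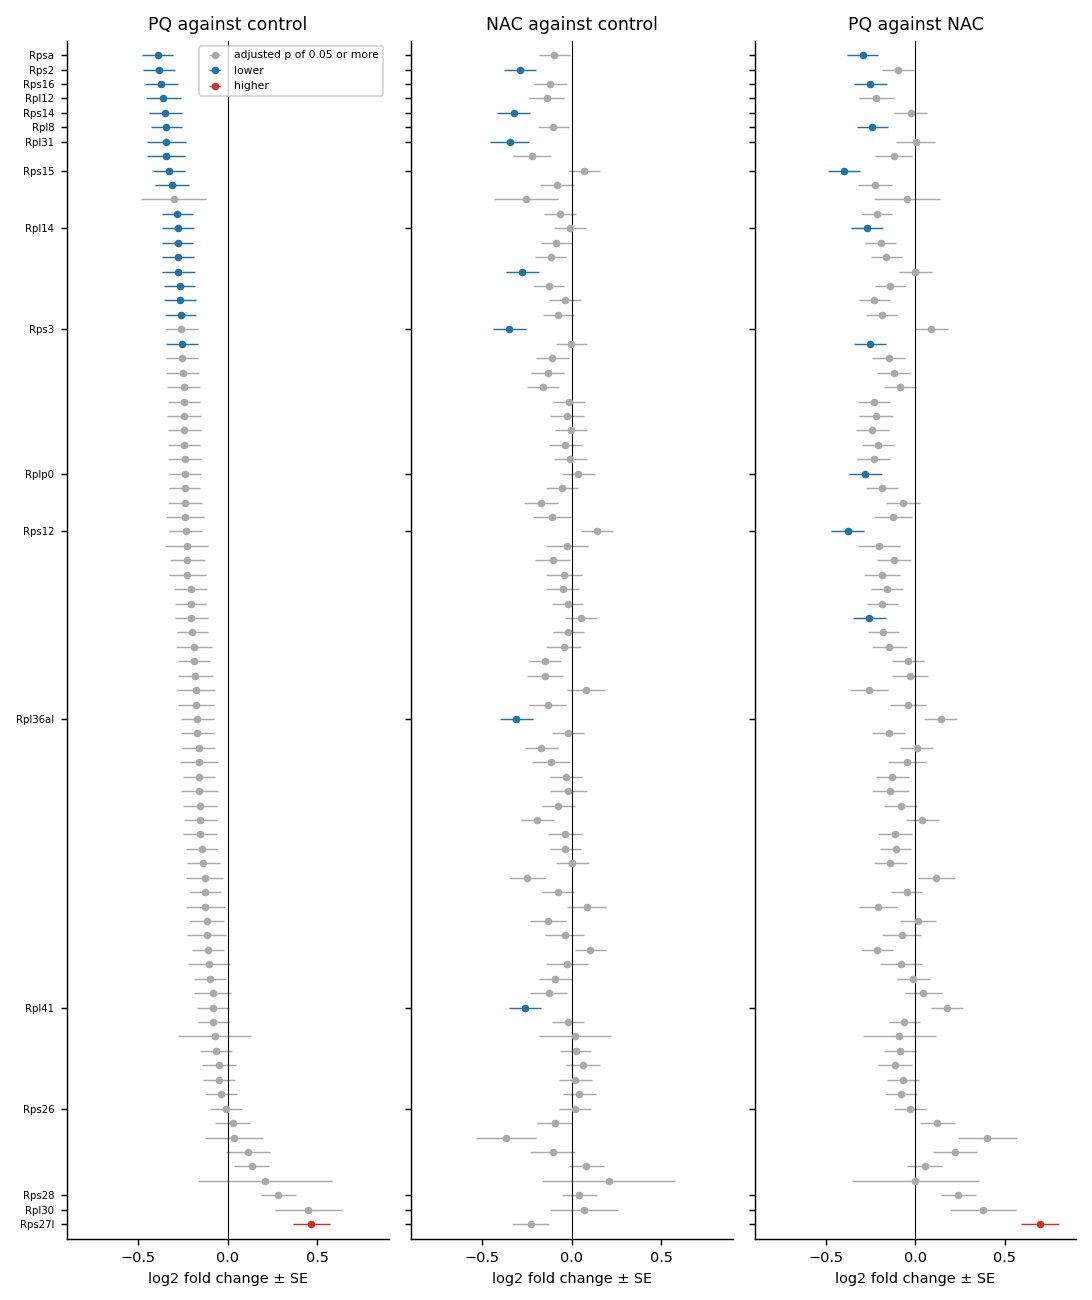
Log2 fold change with standard error for 82 ribosomal protein genes in PQ against control, NAC against control and PQ against NAC. Rpl37rt is left out because its error is far wider than the rest, and names are given for 18 of the genes. In PQ against control nearly all points lie left of 0, and Rps27l is the clear point on the other side.

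The largest falls among small-subunit genes start with Rpsa, also known as the laminin receptor. Rpsa had 1412 and 1408 CPM (counts scaled to library size with TMM factors) in control, 1078 and 1069 in PQ, and 1250 and 1384 in NAC. PQ is lowest and control highest with no overlap between any of the 3 groups, and Rpsa fell by a log2 fold change of -0.39 ± 0.09 (standard error, as in all that follow; edgeR quasi-likelihood test, Benjamini-Hochberg adjusted p = 0.0036). Within batch the log2 difference is -0.39 in batch 1 and -0.40 in batch 2, and the call held in all 14 alternatives that bear on single genes.

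Rps2, at the mRNA entry site, had a CPM of 1030 and 1068 in control, 828 and 778 in PQ, and 819 and 898 in NAC. It was lower in both treatments than in control, by -0.38 ± 0.09 in PQ (edgeR quasi-likelihood test, Benjamini-Hochberg adjusted p = 0.0048). Rps16, which reaches toward the decoding centre, stood at 340 and 378 in control, 277 and 278 in PQ, and 318 and 343 in NAC CPM. Its PQ values lie under all other libraries (-0.37 ± 0.09, edgeR quasi-likelihood test, Benjamini-Hochberg adjusted p = 0.0081). Rps14, the gene of the human 5q deletion anaemia, had 358 and 325, 259 and 277, and 269 and 276 CPM in control, PQ and NAC. Control is the high group here (-0.35 ± 0.09 in PQ, edgeR quasi-likelihood test, Benjamini-Hochberg adjusted p = 0.011).

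Rps15, required for nuclear export of small-subunit precursors, had a CPM of 379 and 395 in control, 312 and 304 in PQ, and 397 and 415 in NAC. Only PQ is low, by -0.33 ± 0.09 (edgeR quasi-likelihood test, Benjamini-Hochberg adjusted p = 0.013). Rps7, an assembly protein that also binds MDM2, went from 691 and 589 CPM in control to 453 and 556 in PQ, with 564 and 535 in NAC. Control is clear of PQ and of NAC, which overlap each other (-0.34 ± 0.11 in PQ, edgeR quasi-likelihood test, Benjamini-Hochberg adjusted p = 0.029), but the log2 difference is -0.61 in batch 1 and -0.08 in batch 2.

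Among large-subunit genes, Rpl12 at the base of the stalk had a CPM of 751 and 626 in control, 514 and 558 in PQ, and 637 and 612 in NAC. PQ is lowest without overlap (-0.36 ± 0.10, edgeR quasi-likelihood test, Benjamini-Hochberg adjusted p = 0.014), with log2 differences of -0.55 and -0.17 within batches 1 and 2. Rpl8, near the peptidyl transferase centre, had 515 and 535 CPM in control, 411 and 416 in PQ, and 477 and 501 in NAC. The order is control, NAC, PQ with no overlap, and the PQ fall is -0.35 ± 0.09 (edgeR quasi-likelihood test, Benjamini-Hochberg adjusted p = 0.0089). Rpl3, which shapes the peptidyl transferase centre, had 1382 and 1258, 1045 and 1130, and 1216 and 1218 CPM in control, PQ and NAC. It shows the same order, with -0.28 ± 0.09 in PQ (edgeR quasi-likelihood test, Benjamini-Hochberg adjusted p = 0.033).

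The other 9 large-subunit genes that fell in PQ are Rpl31, Rpl37, Rpl6, Rpl14, Rpl29, Rpl35, Rpl4, Rpl7a and Rpl18, with log2 fold changes from -0.34 (Rpl31) to -0.26 (Rpl18). Rpl31 differs by -0.60 in batch 1 and -0.08 in batch 2, and its fold change is -0.16 without control 1. For the 2 with large copies the fall is smaller once the copies are added: the log2 ratio of group means is -0.23 for Rpl31 with Rpl31-ps12 against -0.35 for Rpl31 alone, and -0.21 for Rpl37 with Rpl37rt against -0.31 for Rpl37 alone. Rps15a with its copies is at -0.16 against -0.23 alone, and Rps23 with Rps23rg1 at -0.25 against -0.26. These 4 sums keep the sign of their parent genes, as does Rps19 with Rps19-ps3 (-0.08 with and without the copy), whereas Rpl34 turns from 0.21 alone to -0.06 with Rpl34-ps1. Of the 55 genes with whole counts in all libraries 14 fell, where 9.45% of all tested genes fell, and the median log2 fold change is -0.20.

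The stalk proteins, which recruit translation factors, were lower in PQ in each library without passing the test. Rplp0, the stalk base, had a CPM of 1097 and 1189 in control, 981 and 952 in PQ, and 1109 and 1238 in NAC. Rplp1 had 234 and 242, 216 and 221, and 221 and 284, and Rplp2 had 404 and 434, 380 and 388, and 402 and 393. PQ lies below control for all 3 genes, with log2 fold changes of -0.24 ± 0.09, -0.13 ± 0.11 and -0.13 ± 0.09 (edgeR quasi-likelihood test, Benjamini-Hochberg adjusted p = 0.068, 0.46 and 0.36).

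The MDM2-binding proteins Rpl5 and Rpl11, which form a particle with 5S rRNA, were also below control without a call. Rpl5 had a CPM of 1163 and 1020 in control, 872 and 960 in PQ, and 987 and 1004 in NAC, and Rpl11 had 426 and 415, 344 and 384, and 414 and 399. PQ is the low group for each with no overlap (-0.25 ± 0.09 and -0.21 ± 0.09, edgeR quasi-likelihood test, Benjamini-Hochberg adjusted p = 0.063 and 0.12). Rpl23 at the subunit interface and Rpl26 at the exit tunnel, which also bind MDM2, had log2 fold changes of -0.18 ± 0.10 and -0.13 ± 0.10, and their PQ and control values overlap. Rps6, the S6 kinase substrate, had 1124 and 1011, 863 and 946, and 1016 and 880 CPM in control, PQ and NAC (-0.24 ± 0.10, edgeR quasi-likelihood test, Benjamini-Hochberg adjusted p = 0.093). Rps19, mutated in Diamond-Blackfan anaemia, and Rpl13a, of the interferon-linked GAIT complex, had -0.08 ± 0.09 and -0.15 ± 0.10.

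Rps27l, a p53-induced paralog of Rps27, moved the other way. Its CPM was 88.0 and 72.8 in control, 112 and 110 in PQ, and 68.3 and 68.7 in NAC. PQ is highest and NAC lowest with no overlap, and the rise in PQ is 0.47 ± 0.10 (edgeR quasi-likelihood test, Benjamini-Hochberg adjusted p = 0.0039), with 0.34 and 0.60 within batches 1 and 2. The call held in all 14 alternatives, with a highest adjusted p of 0.044. Mdm2, another p53 target, rose too, from 143 and 123 CPM in control to 212 and 208 in PQ (0.66 ± 0.10, edgeR quasi-likelihood test, Benjamini-Hochberg adjusted p = 0.00014). Whether p53 plays a part in either rise was not tested.

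A few core members did not share the fall. Rps26 had 647 and 596 CPM in control, 638 and 594 in PQ, and 648 and 612 in NAC, flat across groups (-0.01 ± 0.09). Rps28, its neighbour at the mRNA exit, had 172 and 148, 189 and 199, and 170 and 159, with PQ above all others (0.28 ± 0.10, edgeR quasi-likelihood test, Benjamini-Hochberg adjusted p = 0.054). Rpl30 had 14.3 and 18.2, 19.7 and 24.7, and 20.3 and 13.7, again with PQ above control (0.45 ± 0.19, edgeR quasi-likelihood test, Benjamini-Hochberg adjusted p = 0.10), on fractional counts of 137 to 237 per library. No sum with look-alike copies was made for Rpl30, so its direction with copies added is not known. Rps28, Rps7, Rpl8 and Rpl36 were singled out after their values were seen.

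**Figure D3:**
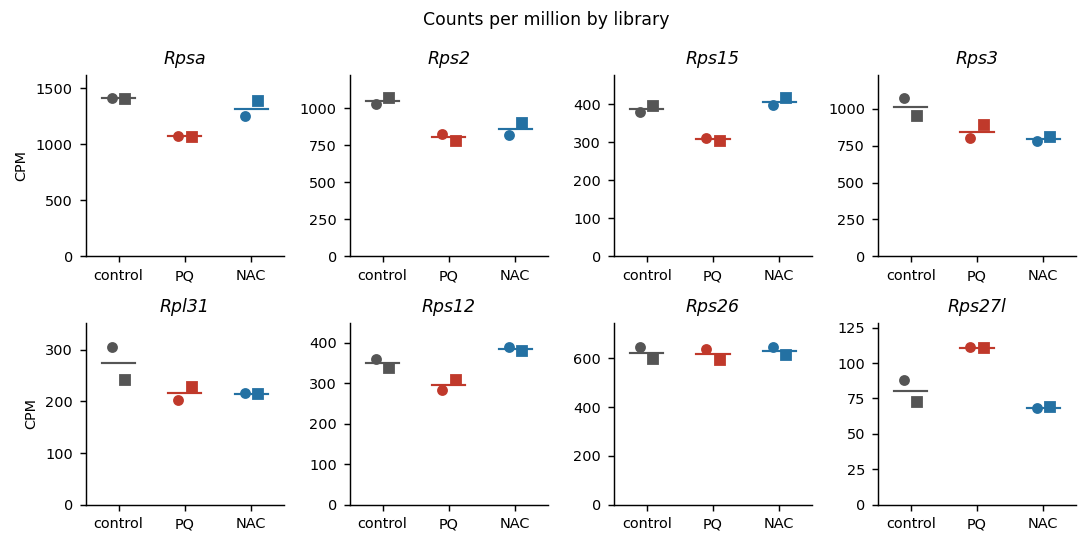
CPM of 8 ribosomal protein genes in each library, with circles for replicate 1, squares for replicate 2 and a line at the group mean. Rpsa and Rps2 are lower in PQ, Rps15 and Rps12 are lower in PQ than in NAC, Rps3 and Rpl31 are lower in NAC than in control, Rps26 is level, and Rps27l is highest in PQ.

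Summed over the 83 genes, ribosomal protein mRNAs took 4.10% and 3.88% of all expected counts in control, 3.46% and 3.58% in PQ, and 3.85% and 3.94% in NAC. PQ is the low group without overlap. The ratio of PQ to control is 0.881, or 0.843 within batch 1 and 0.922 within batch 2. That of NAC to control is 0.975, and against control 2 alone it is 0.99 for NAC 1 and 1.01 for NAC 2. As shares of summed FPKM the values are 12.1% and 11.7%, 10.4% and 10.8%, and 11.8% and 12%, with a PQ to control ratio of 0.891 and a NAC to control ratio of 0.999. With 2 libraries against 2, an exact permutation test cannot go below p = 0.33, so no test of the share was made.

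The batches differ in size of the effect. In batch 1 the median log2 difference of PQ 1 from control 1 is -0.30 and 78 of 83 genes are lower, while in batch 2 PQ 2 differs from control 2 by -0.10 and 55 are lower. In 54 of 83 genes (65.1%) PQ is lower in both batches, and in 4 (4.82%) higher in both, where all tested genes give 32.9% and 33.4%. Control 1 lies above control 2 by a median of 0.09 and PQ 1 below PQ 2 by 0.09, so the libraries of batch 1 mark the extremes.

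**Figure D4:**
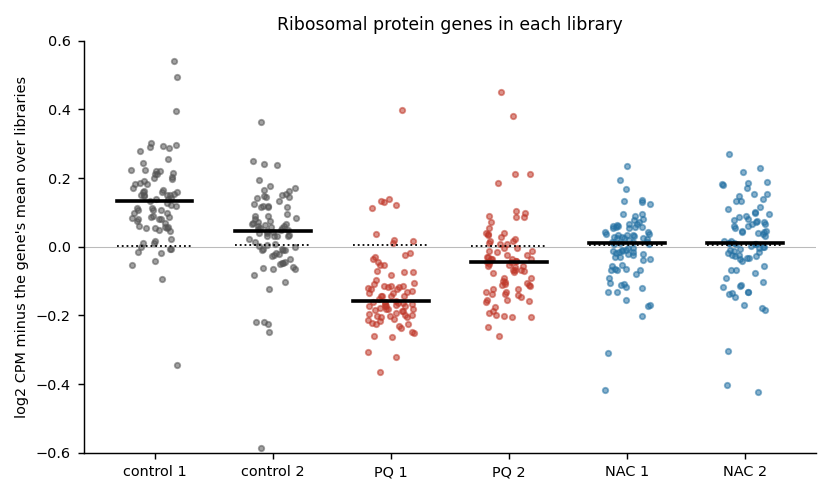
Log2 CPM of each of the 83 genes in each library as a deviation from the gene's mean over libraries, with a solid bar at the median of these genes and a dotted line at the median of all tested genes. The medians are 0.13 and 0.05 in control, -0.16 and -0.04 in PQ, and 0.01 and 0.01 in NAC, and 4 points fall outside the axis.

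The number of genes called depends on single libraries. The count of lower genes is 2 without PQ 1 (2.41%, where 3.52% of all tested genes are lower), 5 without PQ 2 (6.02% against 6.07%) and 9 without control 1 (10.8% against 7.3%), so without either PQ library the share called is no larger than that of all genes. The higher count becomes 5 without control 1 (6.02% against 7.31%) and 2 without control 2 (2.41% against 9.51%). With the labelled batch in the model 10 genes are lower (12% against 8.69%). Among the 9 no longer called are Rpl3, Rpl14, Rpl35 and Rpl7a, whose log2 fold changes of -0.28, -0.28, -0.27 and -0.26 hardly move (edgeR's quasi-likelihood test, Benjamini-Hochberg adjusted p = 0.063, 0.063, 0.070 and 0.075). Of the 14 alternatives, the PQ call held in 13 for Rps2, 12 for Rps14 and Rps15, 11 for Rps16 and Rpl12, 10 for Rpl31, 8 for Rpl14, 5 for Rpl3 and 4 for Rpl35 and Rpl7a.

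Longer core genes had the larger differences in PQ. Over the 77 core genes the Spearman correlation between length and log2 fold change in PQ is -0.46 (n = 77, all measured in the same 6 libraries), against -0.03 over all tested genes and -0.13 over the 633 other genes with an average FPKM of 100 or more. In 5 length classes, up to 500, 700, 1000, 2000 and over 2000 bases, the medians of core genes are -0.11, -0.21, -0.23, -0.25 and -0.23, the last over 3 genes only. Other genes of the same classes have medians of 0.06, 0.06, 0.01, 0.00 and -0.00. The 59 core genes of at most 1000 bases have a median of -0.18, and the 143 other genes as short and with an average FPKM of 100 or more have 0.06. Mean FPKM gives a correlation of only -0.09 over the 77. Whether length plays a part in the difference was not tested.

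**Figure D5:**
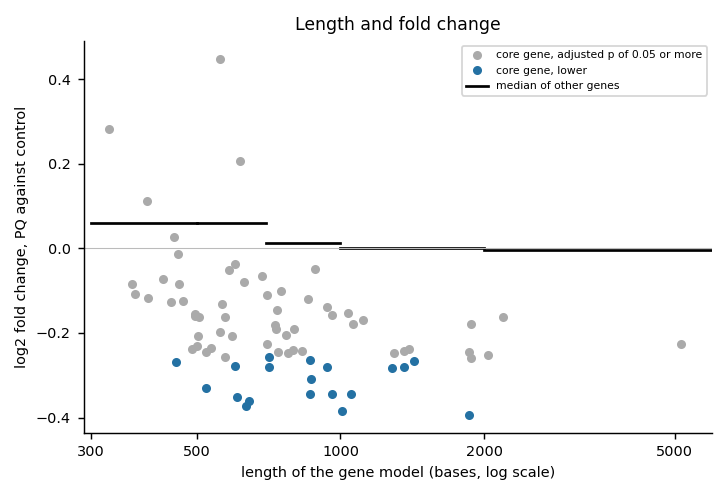
Log2 fold change in PQ against control of 77 core ribosomal protein genes by transcript length on a log axis. Black lines give the median of the other tested genes in 5 length classes, which stay near 0 while most core genes lie below them.

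With all libraries, NAC changed fewer of these genes than PQ did, but the difference was not tested. For genes called lower, this order turned without PQ 1 and was a tie without PQ 2, where PQ is left with 1 library. In NAC against control 7 of 83 fell (8.4%, where 9.64% of tested genes fell), a share near that of all genes, and 0 rose by edgeR (9.01% of tested genes rose), 0 at an unadjusted p under 0.05, and 0 by DESeq2 or limma. The median log2 fold change is -0.07, against -0.00 over all tested genes, and it is -0.007 in each limma fit (all tested genes 0.04 and 0.045), -0.019 without control 1 and -0.113 without control 2. In 26 genes both NAC libraries lie below both controls (28.2% of tested genes) and in 6 above (28.4%). The PQ and NAC comparisons use the same control libraries, so they are not independent of each other.

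Rps3, which guards the mRNA entry channel and also acts in DNA repair, fell most. It had a CPM of 1070 and 950 in control, 801 and 886 in PQ, and 778 and 808 in NAC. Both treatments are below control and NAC is the lower in its mean (-0.35 ± 0.09 in NAC, edgeR quasi-likelihood test, Benjamini-Hochberg adjusted p = 0.012, and -0.26 ± 0.09 in PQ, adjusted p = 0.057). Rpl31 had 306 and 242 CPM in control, 203 and 229 in PQ, and 216 and 215 in NAC. Control is high, mostly through control 1 (-0.35 ± 0.11 in NAC, edgeR quasi-likelihood test, Benjamini-Hochberg adjusted p = 0.032), and with Rpl31-ps12 added the log2 ratio is -0.20.

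Rpl36al, a paralog of Rpl36a, had a CPM of 183 and 186 in control, 159 and 169 in PQ, and 147 and 151 in NAC. NAC is lowest and control highest without overlap (-0.31 ± 0.09, edgeR quasi-likelihood test, Benjamini-Hochberg adjusted p = 0.023). The values given above put Rps14 and Rps2 lower in NAC as well, by -0.32 ± 0.09 and -0.29 ± 0.09 (edgeR quasi-likelihood test, Benjamini-Hochberg adjusted p = 0.018 and 0.028). Rpl41 fell by -0.26 ± 0.09 (edgeR quasi-likelihood test, Benjamini-Hochberg adjusted p = 0.048). It had 706 and 653, 617 and 666, and 581 and 552 CPM in control, PQ and NAC, with only NAC clear of control. The NAC call held in 9 of the 14 alternatives for Rps3 and Rpl36al, 8 for Rpl31, Rps14 and Rps2, and 5 for Rpl41.

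Both NAC libraries are in batch 2, and against control 2 alone the median log2 difference is -0.05 for NAC 1 and -0.01 for NAC 2. The count of lower genes is 0 without NAC 1 (5.57% of all tested genes), 0 without NAC 2 (6.47%), 3 without control 1 (3.61%, against 8.36% of all tested genes) and 11 without control 2 (13.3% against 9.53%), and the higher count is 2 without control 1 (2.41% against 7.25%). With the labelled batch in the model edgeR calls 0 lower (7.62% of all tested genes), with a median of -0.076. The log2 fold changes of Rps3, Rpl36al, Rps14, Rps2 and Rpl41 are then -0.34, -0.34, -0.31, -0.28 and -0.26, about as large as without batch. That of Rpl31 is -0.30. Limma on log2(FPKM + 1) without batch calls 0 (6.29%), where DESeq2 calls 7 (8.43% against 7.69%) and 10 pass edgeR at an unadjusted p under 0.05 (12% against 16.1%).

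Set against NAC, the median of these genes was again lower in PQ, but the share of genes called lower was not above that of all tested genes. Of 83 genes 9 fell (10.8%, where 15.7% of tested genes fell) and 1 rose (16% of tested genes rose), with a median log2 fold change of -0.12. This median is -0.066 without PQ 1 and -0.187 without PQ 2. In 41 genes both PQ libraries lie below both NAC libraries (33.3% of tested genes) and in 9 above (33.2%). The share called lower is under that of all tested genes here and in most alternatives. It is over that of all genes with no filter on low values (16.9% against 12%) and with limma on log2(FPKM + 0.1) (14.5% against 14.2%).

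Rps15, with the values above, has the largest fall (-0.40 ± 0.09, edgeR quasi-likelihood test, Benjamini-Hochberg adjusted p = 0.0018), and the call held in all 14 alternatives, against 13 for Rps12, 10 for Rpsa and Rplp0 and 9 for Rpl14. Rps12, a small-subunit protein that senses imbalance in cell competition in flies, had a CPM of 360 and 337 in control, 284 and 308 in PQ, and 390 and 379 in NAC. The groups are apart with NAC highest and PQ lowest (-0.38 ± 0.09, edgeR quasi-likelihood test, Benjamini-Hochberg adjusted p = 0.0034). Rpsa and the stalk base Rplp0 fell by -0.29 ± 0.09 and -0.28 ± 0.09 (edgeR quasi-likelihood test, Benjamini-Hochberg adjusted p = 0.014 and 0.023). Rpl14 of the large subunit had 337 and 361, 291 and 284, and 357 and 336 CPM in control, PQ and NAC. Only its PQ values are low (-0.27 ± 0.09 against NAC, edgeR quasi-likelihood test, Benjamini-Hochberg adjusted p = 0.028). Rps27l is the gene that rose, by 0.70 ± 0.10 (edgeR quasi-likelihood test, Benjamini-Hochberg adjusted p = 5.1e-05).

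PQ 1 has no NAC partner in its batch. Within batch 2, PQ 2 differs from NAC 1 and NAC 2 by medians of -0.05 and -0.08. The lower count is 1 without PQ 1 (1.2%, against 9.51% of all tested genes), 2 without PQ 2 (2.41% against 10.5%), 3 without NAC 2 (3.61% against 11.7%), and 14 without control 1 or without control 2 (16.9% against 17.7% and 17.8%), while the higher count is 2 without NAC 1 (2.41% against 10.6%) and 3 without either control library (3.61% against 18.1% and 18.2%). With the labelled batch in the model the lower count is 2 (Rps15 and Rps12, 2.41% against 12.1%) and the higher count 2 (2.41% against 12.7%), and Rpsa, Rplp0 and Rpl14 are not called, at log2 fold changes of -0.30, -0.26 and -0.25 that are about as large (quasi-likelihood test of edgeR, Benjamini-Hochberg adjusted p = 0.058, 0.11 and 0.12).

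Paralog pairs were compared by level per length. Rps27l made up 23.0% and 22.0% of the summed FPKM of Rps27 and Rps27l in control, 30.9% and 29.5% in PQ, and 22.7% and 18.1% in NAC. PQ is high without overlap, since Rps27 itself had 231 and 203 CPM in control, 196 and 207 in PQ, and 182 and 243 in NAC. Rpl22l1, the paralog of the RNA-binding Rpl22, made up 42.6% and 35.6% of its pair in control, 35.2% and 39.4% in PQ, and 37.5% and 37.6% in NAC, with all groups overlapping. Its CPM differs between the controls, at 56.0 and 32.9, as does that of Rpl36 at 94.6 and 44.8. Rpl7l1, a nucleolar paralog of Rpl7, made up 3.91% and 4.33% of its pair in control, 5.48% and 4.41% in PQ, and 4.12% and 4.55% in NAC. PQ lies above control there, and NAC overlaps both. Rpl36al made up 31.4% and 36.6% of its pair in control, 34% and 33.4% in PQ, and 29.4% and 29.5% in NAC. NAC is lowest without overlap for that pair, while control and PQ overlap.

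Rpl39 and Rps4x are effectively alone, as Rpl39l and Rps4l lie under the filter.

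Of the 3 ribosomal proteins outside the naming rule 1 fell in PQ (33.3%, against 9.45% of all tested genes): Rack1, the scaffold at the head of the small subunit, had 689 and 684 CPM in control, 538 and 581 in PQ, and 557 and 644 in NAC (-0.30 ± 0.09 in PQ, edgeR quasi-likelihood test, Benjamini-Hochberg adjusted p = 0.033). Of 15 other genes with TOP mRNAs, most of them translation factors, 3 fell in PQ (Eef1a1, Eef2 and the histone chaperone Nap1l1, or 20% where 9.45% of all tested genes fell) and all 15 have a negative log2 fold change, with a median of -0.18. The elongation factor Eef2 had 2485 and 2632, 2066 and 2107, and 2426 and 2512 CPM in control, PQ and NAC, with PQ alone low (-0.29 ± 0.08, edgeR quasi-likelihood test, Benjamini-Hochberg adjusted p = 0.019). Of 78 mitochondrial ribosomal proteins 2 fell (2.6%, against 9.45% of all tested genes) and 1 rose (1.3%, against 9.76%) in PQ, with a median of -0.03. In PQ against NAC 14 of them rose (17.9%, near the 16% of all tested genes) and 3 fell (3.8%, against 15.7%).

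Of 63 ribosome assembly factors 8 fell in PQ (12.7%, near the 9.45% of all tested genes) and 1 rose (1.6%, against 9.76%), with a median of -0.08. The falls include Nop56 of the box C/D particle, at 153 and 129 CPM in control, 107 and 95.8 in PQ, and 155 and 149 in NAC (-0.47 ± 0.10, edgeR quasi-likelihood test, Benjamini-Hochberg adjusted p = 0.0037), and the pseudouridine synthase Dkc1 (-0.54 ± 0.12, adjusted p = 0.0040). Of 19 tested RNA polymerase I genes 2 rose in PQ, the subunit Polr1e and the initiation factor Rrn3, a share of 10.5% that is about that of all tested genes (9.76%). Among 8 snoRNA host transcripts, which also carry TOP tracts, Snhg5 and Snhg12 fell (25%, against 9.45% of all tested genes). Of 17 tested regulators 1 rose in PQ (Mdm2; 5.9%, against 9.76%) and 3 fell (17.6%, against 9.45%): the TOP-binding Larp1 (-0.33 ± 0.09, edgeR quasi-likelihood test, Benjamini-Hochberg adjusted p = 0.016), the translation repressor Eif4ebp1 and the kinase Rps6kb1. In NAC, Myc, Trp53 and Maf1 rose (17.6%, against 9.01% of all tested genes) while Mdm2 and Eif4ebp1 fell (11.8%, against 9.64%).

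The proliferation marker Mki67 moved with the PQ libraries: its CPM was 1057 and 1082 in control, 452 and 522 in PQ, and 1368 and 1192 in NAC (-1.13 ± 0.10 in PQ, edgeR quasi-likelihood test, Benjamini-Hochberg adjusted p = 5.7e-07). Of the 6 tested neural stem and progenitor markers 3 fell in PQ (50%, against 9.45% of all tested genes), Mki67 and Sox2 among them, and Nes rose (16.7%, against 9.76%). In NAC, where 9.01% of all tested genes rose and 9.64% fell, 3 of the 5 tested astrocyte markers rose (60%: Gfap, Aqp4 and Slc1a2) while 1 of the other 2 had both NAC libraries below control, 3 of 4 oligodendrocyte-lineage markers (75%) and the only neuronal marker tested, Map2, rose, and 2 of 6 progenitor markers fell (33.3%). Below the filter, the neuronal Tubb3 had 2.38 and 1.3 FPKM in control, 0.72 and 0.47 in PQ, and 0.32 and 0.44 in NAC. Syt1 had 0.17 and 0.23, 0.26 and 0.26, and 0.06 and 0.11 in the same order. Of the 5 astrocyte markers 1 rose in PQ (20%, against 9.76% of all tested genes). The only fibroblast marker tested, Col3a1, fell in PQ (9.45% of all tested genes), and the only microglial marker tested, P2ry12, rose in NAC (9.01%). The part of all these markers in the lower ribosomal protein mRNAs was not tested, nor was that of the labelled batch beyond the values given.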

How the data were processed

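Gene tables of 6 libraries hold expected counts and FPKM. The authors deposited expected count values in columns of the RSEM type in all 6 tables, although the labels of batch 1 name TopHat2 2.0.11 and Cufflinks 2.1.1 and those of batch 2 name HISAT2 2.0.4, Bowtie2 2.2.5 and RSEM. The deposited FPKM values come from the same tables. Total expected counts were 9680436 to 10698241 per library, with 15193 to 15557 genes listed. NCBI gene IDs were matched to mouse symbols (99.7% matched). Expected counts were rounded to integers, and the 11717 genes averaging 1 FPKM or more were fitted with edgeR 4.0.16 (glmQLFit and glmQLFTest, TMM, 3 groups of 2, no covariate) in R 4.3.3, with Benjamini-Hochberg adjustment over all of them at 0.05. The code was tested on simulated data.

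Members and gene lists were chosen with earlier results of these data known. Genes are named when they are among the 5 largest rises or falls of a contrast with an adjusted p under 0.05 and groups that do not overlap, the 5 most or least abundant, a paralog, a stalk, MDM2-binding or otherwise fixed gene, a gene with a large fractional share, or on a list. Counts of each pathway list cover all its tested genes.

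Alternatives were DESeq2 1.42.0, its size factors, TMM without the members, limma 3.58.1 on log2(FPKM + 1) and log2(FPKM + 0.1), batch as a covariate, no filter, only the 4 libraries compared, members with whole counts only, and leaving out each library. Leaving out libraries for the summed share and for the fractional counts was chosen after seeing the data. Replicate numbers follow the order of the records and were not used as pairs. Promoter sequences are from RefSeq. The comparison of protein sequences was not run. Some genes of the lists are not reported here by name.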

Additional observations from a re-analysis of the deposited data

How the results depend on the processing

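No median and none of 25 named calls changed sign under an alternative, and the PQ to control ratio of the summed share stayed below 1. Other named genes were not followed, nor were the ratios with NAC when libraries were left out. The share of members called lower changed sides against that of all genes in each comparison, as the values here and above show. For genes lower in PQ against control (19), the labelled batch as a covariate gave 10 (12%, against 8.69% of all tested genes), limma on log2(FPKM + 0.1) 8 (9.64% against 6.35%), limma on log2(FPKM + 1) 6 (7.23% against 6.19%), and leaving out 1 library 2 to 24 (2.41% against 3.52% without PQ 1, 28.9% against 9.32% without control 2). Genes higher (1) became 2 with limma on log2(FPKM + 0.1), 4 with no filter, and 1 to 5 without 1 library, while the median ranged from -0.244 to -0.135. For NAC against control, lower genes (7) became 0 with batch as a covariate (7.62% of all tested genes), 2 and 0 with limma at the 0.1 and 1 pseudocounts (6.46% and 6.29% of all), 4 among members with whole counts (fewer genes counted), and 0 to 11 without 1 library (13.3% against 9.53% without control 2). Higher genes ranged from 0 to 2, and the median was -0.007 in both limma fits (all tested genes 0.045 and 0.04) and -0.113 to -0.019 without 1 library. For PQ against NAC, lower genes (9) became 2 with batch (2.41% against 12.1%), 14 with no filter (16.9% against 12%), 14 with only the 4 libraries compared (16.9% against 17.8%), and 1 to 14 without 1 library (1.2% against 9.51% without PQ 1). Higher genes (1) became 2, 2, 3 and 1 to 3 in that order, and the median ranged from -0.187 to -0.066. The cause of these shifts was not tested. The 4 lower in NAC were among 55 members with whole counts, where 9.64% of all tested genes fell. Higher genes in PQ against control were 2.41% with limma on log2(FPKM + 0.1), against 8.46% of all tested genes, and 4.82% with no filter, against 7.68%. In PQ against NAC they were 2.41% with batch (12.7% of all), 2.41% with no filter (12.5%) and 3.61% with only the 4 libraries compared (18.2%). The PQ to control ratio of the summed share, here with the -ps symbols (88 genes, 0.883), stayed within 0.859 to 0.907 and the genes with a fractional count within 26 to 28 without 1 library, both added after seeing the data. Of 350 values for 25 named calls in 14 settings, 243 kept their call, 107 lost it and 0 turned. Where a group is left with 1 library, that library is assumed to vary like the other groups. Protein length and identity, planned from RefSeq, were not run. What depth limits was not tested.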
